A study of Mus musculus with 12 samples.

Results

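The tight junction genes described here are Cldn2, Cldn3, Cldn4, Cldn7, Cldn8, Cldn15, Cldn23, Ocln, Tjp1 and F11r, 10 of the 32689 genes of the colon table, each found once by its gene name. Gene expression was measured by total RNA-Seq in colon and whole blood of male C57BL/6 mice that were 8 weeks old on arrival. The libraries labelled ulcerative colitis (UC) came from mice 1, 2 and 4, given 1.5% dextran sulfate sodium (DSS), an irritant of the gut lining, in the drinking water for 7 days. The libraries labelled control came from mice 7, 8 and 9, which drank the same water without DSS, and all mice were killed on day 8. Per the study's methods the mice were picked from a larger group by their disease activity index, and whole colon was used, so each library mixes epithelium with muscle, stroma and immune cells. There were 3 libraries in each of UC colon, control colon, UC blood and control blood, and each library is a separate mouse and tissue.

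Tight junctions are the seals near the apical edge of neighbouring epithelial cells, and they set how readily ions, water and larger molecules pass between the cells. Claudins are the membrane proteins that build the strands: Cldn2 and Cldn15 form pores for small cations and water, whereas Cldn3, Cldn4, Cldn7, Cldn8 and Cldn23 were grouped as sealing claudins, although the role of Cldn7 and Cldn23 as sealing proteins is less settled than that of the other 3. Occludin (Ocln) and junctional adhesion molecule A (F11r) are further membrane proteins of the junction, and Tjp1 encodes ZO-1, the scaffold that ties them to actin. In mouse colon, pore-forming claudins are known for expression near the crypt base and several sealing claudins for expression toward the surface.

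Promoters of 8 of the 10 genes were found in the RefSeq table on GRCm38.p6, Cldn8 and Cldn23 not being matched. They span 250 bases before to 50 bases after the annotated start, and both pore-forming claudins are shown with Cldn4, a sealing claudin with the most motif matches, and Ocln, for comparison. Capitals mark matches on either strand to 5 motifs, spelled as TATAAA for the TATA box, as CAGGTG for the E-box, as TGANTCA for AP-1, as TTCNNNGAA for STAT and as GGGCGG for the box bound by Sp1, and no match overlapped another.
Cldn2, chrX:139800558-139800857, plus strand: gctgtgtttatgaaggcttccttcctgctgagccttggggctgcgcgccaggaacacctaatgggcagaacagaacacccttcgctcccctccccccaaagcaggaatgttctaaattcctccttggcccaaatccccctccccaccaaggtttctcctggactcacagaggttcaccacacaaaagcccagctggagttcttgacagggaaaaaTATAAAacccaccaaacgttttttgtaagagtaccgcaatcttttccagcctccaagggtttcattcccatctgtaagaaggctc
Cldn15, chr5:136967619-136967918, plus strand: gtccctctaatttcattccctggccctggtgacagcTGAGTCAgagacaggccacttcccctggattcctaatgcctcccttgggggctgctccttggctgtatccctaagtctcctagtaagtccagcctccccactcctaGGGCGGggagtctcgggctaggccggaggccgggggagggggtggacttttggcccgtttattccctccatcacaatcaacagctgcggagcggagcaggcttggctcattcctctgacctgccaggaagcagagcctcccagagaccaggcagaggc
Cldn4, chr5:134946885-134947184, minus strand: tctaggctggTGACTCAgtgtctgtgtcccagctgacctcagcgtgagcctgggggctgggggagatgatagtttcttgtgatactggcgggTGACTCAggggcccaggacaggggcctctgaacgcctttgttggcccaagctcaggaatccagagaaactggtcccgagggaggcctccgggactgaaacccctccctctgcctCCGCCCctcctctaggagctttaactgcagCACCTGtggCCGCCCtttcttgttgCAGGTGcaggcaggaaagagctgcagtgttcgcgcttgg
Ocln, chr13:100552669-100552968, minus strand: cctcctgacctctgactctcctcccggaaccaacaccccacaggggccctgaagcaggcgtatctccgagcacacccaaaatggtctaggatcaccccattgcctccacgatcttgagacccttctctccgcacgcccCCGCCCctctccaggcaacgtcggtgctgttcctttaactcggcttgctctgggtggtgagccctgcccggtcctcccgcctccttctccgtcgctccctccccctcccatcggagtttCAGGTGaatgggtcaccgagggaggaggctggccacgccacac
Cldn2 was the only member of the 8 with the TATAAA letters, which 13.6% of the 32851 promoters of the same length hold. The AP-1 letters were in 3 of the 8 (Cldn15, Cldn4 and F11r) against 7.81% of all promoters, and Cldn4 held 2 matches. The E-box was in 4 of the 8 against 20.2%, the Sp1 box in 6 of the 8 against 35.7%, and the STAT letters in 0 of the 8 against 8.30%. These are matches of letters and were not measured as bound sites. The Cldn15 promoter of RefSeq lies 1253 bases from the start of the GENCODE gene range, whereas that of Cldn2 lies 20 bases from it and those of Cldn4 and Ocln start at the same base.

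For all 12 libraries one label field names colon where another names blood; the groups follow the tissue characteristic, and the marker genes matched it in every library. Epcam, an epithelial adhesion gene, had 62523 to 89326 counts in the colon libraries and 11 to 59 in the blood libraries, and Alas2, a heme synthesis gene of red cells, had 497 to 4595 and 4678666 to 7108744. Total counts ran from 69181049 to 103662306 in colon and from 80867247 to 142536804 in blood. The inflammation genes do not follow the disease labels, although the study picked the mice by their disease activity index, whose values for each mouse were not used here. Of the 13 inflammation genes named by the study, all 13 had their 3 highest colon values in mice 1, 7 and 9, of which only mouse 1 is labelled UC, a pattern shared by 18.2% of 22182 tested genes. S100a8, a calcium-binding protein gene of neutrophils, had 5370, 33.1 and 22.3 normalized counts in the libraries labelled UC (mice 1, 2 and 4). It had 1888, 75.6 and 13337 in those labelled control (mice 7, 8 and 9). Lcn2 had 1248, 96.7 and 99.8 against 1208, 117 and 9155. Each direction below is therefore one between libraries as labelled.

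None of the 10 genes was significantly differentially expressed (SDE, adjusted p ≤ 0.05 and |log2FC| > 1) between the colon libraries labelled UC and control in edgeR's quasi-likelihood test, where 0.0045% of 22238 tested genes were. At an unadjusted p under 0.05, 0 of the 10 passed, against 1.41% of all tested genes, and DESeq2 also called 0 with 0 at that level (0.027% and 2.51% of all genes). Limma-voom had 1 of 10 at that level, Cldn2, against 1.54%, and edgeR without mouse 8 had 2 of 10, Cldn2 and Ocln, against 8.4%. Cldn2 was the only member whose levels were separated by label, 1 of 10, against 5.66% of tested genes with no overlap in either direction. In the other 9 genes the labelled groups overlapped. Since these are bulk samples, fewer epithelial cells and less RNA per cell cannot be told apart. The study, using DESeq2 and the same thresholds, reported far more SDE genes in colon than edgeR or DESeq2 called here. The comparison as labelled thus did not reproduce that result, and the cause was not tested. The values for the members therefore describe the libraries as labelled and not the effect of DSS.

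Cldn2 (ENSMUSG00000047230, chrX:139800828-139811386, plus strand, GRCm38) encodes the cation- and water-selective pore claudin. Its normalized count, the count divided by a factor for the library, was 7775, 7789 and 6209 in the libraries labelled UC from mice 1, 2 and 4. It was 2356, 1.26 and 1589 in the libraries labelled control from mice 7, 8 and 9. All 3 libraries labelled UC were above all 3 labelled control, a separation in this direction that 3.51% of 22182 tested genes also had. The means were 7258 ± 908 (SD, n = 3) and 1315 ± 1201 (SD, n = 3), with a log2FC of 2.46 (95% interval -1.17 to 6.09, adjusted p = 1.00 in edgeR).

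The width of that interval came with mouse 8, whose colon library held 1 count of Cldn2, while the other 5 colon libraries held 1766 to 8944 counts. Cldn2 was the only gene in the whole count table with no more than 3 counts in a given colon library and at least 1000 in each of the others. With a minimum of 100 counts in the others, mouse 8 had 5 such genes (Cldn2, Zfp966, Zfp967, Pcdhb17 and Gm43302) and the other libraries had 1 to 3 each, these names being taken after the values were seen. Of its nearest read neighbours on the X chromosome, Ripply1 had 0 counts in mouse 8 and 5 to 24 in the other colon libraries, Tbc1d8b had 4874 counts in mouse 8 and 2508 to 5768 over the colon libraries, and Morc4 had 264 in mouse 8 and 264 to 633 over them. No annotated gene shares exons with Cldn2 in GENCODE vM21. Without mouse 8 the log2FC was 1.88 (SE 0.26, 3 against 2 libraries), with an adjusted p of 0.540 in edgeR, and limma-voom with all libraries gave a log2FC of 5.07 (adjusted p = 1.00). Among the 5 libraries other than mouse 8, Cldn2 still spanned 4.90-fold, against 1.70-fold for Epcam and 1.53-fold for Krt8, a keratin of simple epithelium, over all 6.

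Cldn15 (ENSMUSG00000001739, chr5:136966616-136975858, plus strand) encodes the other pore-forming claudin, best known from the small intestine. It had 8413, 1920 and 1408 normalized counts in mice 1, 2 and 4 and 3861, 1060 and 2040 in mice 7, 8 and 9. Mouse 1 was 2.18-fold above mouse 7, the next highest, and the labelled groups overlapped. The means were 3914 ± 3905 (SD, n = 3) for UC and 2320 ± 1421 (SD, n = 3) for control, with a log2FC of 0.74 (95% interval -1.14 to 2.62, adjusted p = 1.00), which turned to -0.49 when mouse 1 was left out.

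The 3 highest Cldn15 values were in mice 1, 7 and 9, the libraries that also held the highest S100a8. Of the 10 members 1 had this pattern, as did 18.2% of tested genes, and mouse 9 (2040) was close to mouse 2 (1920). Mice 1 and 7 stood apart in the sum of marker genes of position along the gut. The 4 distal hindgut genes found of 5 listed were Hoxa13, Hoxb13, Hoxd12 and Hoxd13. They summed to 3606 and 4924 normalized counts in mice 1 and 7 and to 18228 to 44546 in the other 4 libraries. By label that sum ran from 3606 to 43394 in UC and from 4924 to 44546 in control, and none of the 4 was at 0. Mice 1 and 7 were lowest for 3 of the 4, while Hoxd12 was at 54.0 in mice 1 and 9 and 88.5 in mouse 7. Hoxd13 was at 1472 in mouse 9, close to 1296 in mouse 7, and at 7619 to 9399 in mice 2, 4 and 8. For the Hoxd genes mouse 9 was thus near mice 1 and 7. Cldn15 and Cldn23 had their 2 highest values in mice 1 and 7, as did 11.6% of tested genes, and Cldn8 its 2 lowest, as did 13.8%. The part of the gut region in these values was not tested.

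**Figure D1:**
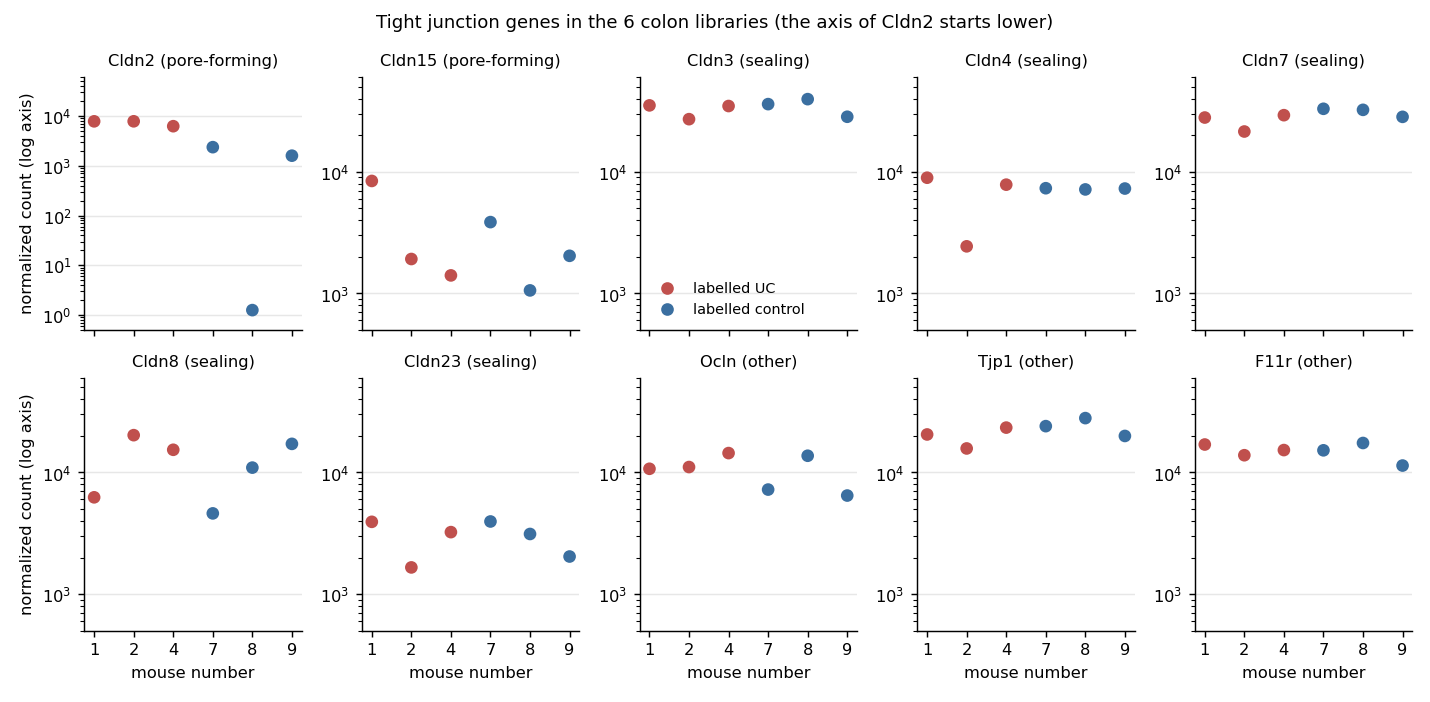
Normalized counts (log axis) of the 10 tight junction genes in each colon library, by mouse number; red points are labelled UC and blue points labelled control, with no error bars since each point is a library. The 3 red points of Cldn2 lie above its 3 blue points, and mouse 8 lies at 1.26, while in the other 9 genes red and blue overlap.

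The sealing claudins differed from each other in how far they varied between libraries. Cldn3 (ENSMUSG00000070473, chr5:134986214-134987472, plus strand) had 35157, 27083 and 34730 normalized counts in mice 1, 2 and 4 and 36004, 39560 and 28345 in mice 7, 8 and 9. Cldn7 (ENSMUSG00000018569, chr11:69964779-69967885, plus strand) had 27931, 21441 and 29205 against 32956, 32308 and 28296. Both were narrow: the highest library was 1.46-fold above the lowest for Cldn3 and 1.54-fold for Cldn7, and 83.9% and 79.1% of the tested genes had a wider range (median 2.23-fold). The 6 epithelial reference genes (Epcam, Cdh1, Krt8, Krt18, Krt19 and Vil1) summed to 701241 to 852791 normalized counts in the libraries labelled UC and to 678949 to 999084 in those labelled control. Cldn3 shares 40 exon bases with an antisense gene, Wbscr25, on the opposite strand, and the quantification did not use strand.

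Cldn4 (ENSMUSG00000047501, chr5:134945119-134946934, minus strand), the target together with Cldn3 of a bacterial enterotoxin, lies 39.3 kb from Cldn3. Its values were 8943, 2441 and 7841 normalized counts in mice 1, 2 and 4 and 7331, 7165 and 7287 in mice 7, 8 and 9. Mouse 2, labelled UC, was far below the other 5 libraries, which lay between 7165 and 8943. The labelled control libraries had a mean of 7261 ± 86.1 (SD, n = 3), and those labelled UC 6408 ± 3480 (SD, n = 3), or 8392 without mouse 2. Accordingly the log2FC was -0.20 (SE 0.45) with all libraries and 0.19 (SE 0.17) without mouse 2.

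Cldn8 (ENSMUSG00000050520, chr16:88560828-88563183, minus strand), a sealing claudin of the distal colon that limits sodium back-leak, varied most among the sealing claudins. It had 6251, 20267 and 15369 normalized counts in mice 1, 2 and 4 and 4612, 10967 and 17189 in mice 7, 8 and 9. Mice 7 and 1 were lowest, mice 2 and 9 highest, and the span was 4.39-fold. The log2FC was 0.35 (95% interval -1.03 to 1.73, adjusted p = 1.00), and it was -0.026 without mouse 2 and -0.016 without mouse 7.

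Cldn23 (ENSMUSG00000055976, chr8:35824712-35826559, minus strand), a claudin of differentiated surface colonocytes, had 3931, 1659 and 3235 normalized counts in mice 1, 2 and 4. It had 3957, 3123 and 2039 in mice 7, 8 and 9. As with Cldn4, the lowest value was that of mouse 2, which was also lowest for Cldn3, Cldn7 and Tjp1.

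The other 3 members were Ocln, Tjp1 and F11r. Ocln (ENSMUSG00000021638, chr13:100496507-100552718, minus strand) had 10727, 11086 and 14438 normalized counts in mice 1, 2 and 4 and 7238, 13728 and 6464 in mice 7, 8 and 9. Its 3 lowest values were those of mice 9, 7 and 1, which 14.7% of tested genes shared. In the same 3 libraries 7 of 7 macrophage markers had their 3 highest values, a pattern of 18.2% of tested genes. So did 7 of 7 T cell, 9 of 10 neutrophil, 3 of 6 fibroblast and 0 of 6 B and plasma cell markers. The macrophage markers, none at 0, summed to 14784 to 34882 in libraries labelled UC and to 13269 to 57030 in those labelled control. The part of these cells in the Ocln values was not tested. The log2FC was 0.38 (95% interval -0.41 to 1.17, adjusted p = 1.00) and, without mouse 8, 0.82 (SE 0.21, adjusted p = 0.540 in edgeR).

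Tjp1 (ENSMUSG00000030516, chr7:65296165-65527781, minus strand) had 20537, 15762 and 23383 normalized counts against 24038, 27986 and 19966. F11r (ENSMUSG00000038235, chr1:171437535-171464603, plus strand) had 16980, 13865 and 15287 against 15214, 17476 and 11404. Both stayed within 1.78-fold and 1.53-fold over the 6 libraries, close to the range of Epcam, and the log2FC was -0.29 (SE 0.22) for Tjp1 and 0.05 (SE 0.21) for F11r.

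Across the 10 genes the precision of the labelled comparison followed this variation. The intervals were narrowest for Cldn7 (-0.72 to 0.18), Cldn3 (-0.62 to 0.39) and F11r (-0.46 to 0.56), all within a log2FC of 1 either way, and that of Tjp1 (-0.82 to 0.25) and Cldn23 (-0.99 to 0.85) were too. For Cldn2, Cldn15, Cldn8 and Ocln the interval reached past a log2FC of 1, and for Cldn2, Cldn15, Cldn8 and Cldn4 it reached past -1. The median log2FC was 1.60 for the 2 pore-forming and -0.12 for the 5 sealing claudins, beside -0.01 over all tested genes. That of the pore-forming claudins is only the midpoint of Cldn2 (2.46) and Cldn15 (0.74), each of which leaned on 1 library. Cldn2 was at 1.88 without mouse 8, and Cldn15 at -0.49 without mouse 1.

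**Figure D2:**
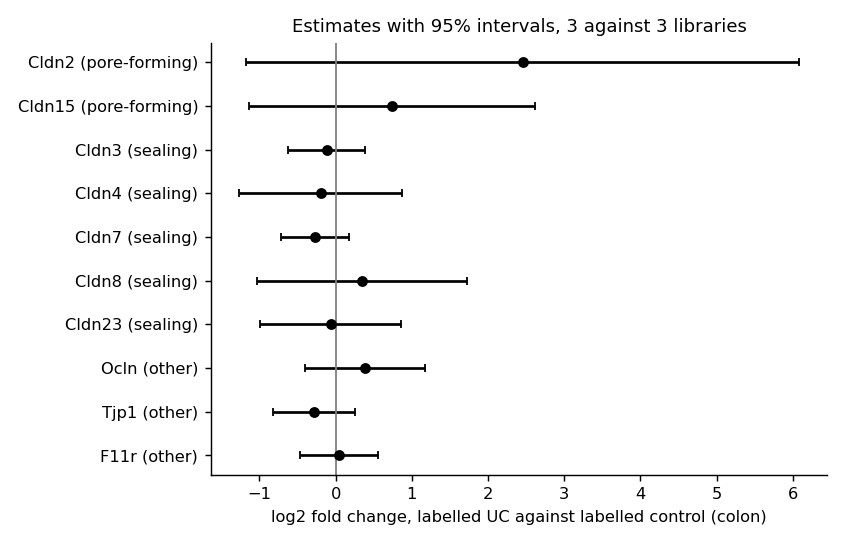
Log2 fold change of each tight junction gene in colon, labelled UC against labelled control, as points with 95% intervals from edgeR (3 against 3 libraries). Every interval covers 0, that of Cldn2 is the widest and that of Cldn7 (-0.72 to 0.18) among the narrowest.

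Pore-forming claudins were set against sealing claudins within each library, as the mean log2 CPM (counts scaled to the library total) of Cldn2 and Cldn15 minus that of the 5 sealing claudins. This difference was -0.53, -1.16 and -2.15 in mice 1, 2 and 4 and -1.86, -7.76 and -2.68 in mice 7, 8 and 9. Mouse 1 was highest and mouse 8 lowest, and mouse 4, labelled UC, was below mouse 7, labelled control. The labelled means were -1.28 ± 0.82 (SD, n = 3) for UC and -4.10 ± 3.19 (SD, n = 3) for control, a difference of 2.82 that was 0.99 without mouse 8. No test was made, the genes of the difference having been chosen with results known.

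The 2 pore-forming claudins did not make up this difference in the same libraries. Relative to the sealing mean, Cldn2 was at -0.58, -0.15 and -1.08 in mice 1, 2 and 4 and at -2.22, -11.95 and -2.86 in mice 7, 8 and 9. Cldn15 was at -0.47, -2.17 and -3.22 and at -1.51, -3.57 and -2.50. Mouse 2 thus had the highest relative Cldn2 of all but only the third highest relative Cldn15, after mice 1 and 7. Per length, Cldn2 and Cldn15 together made up 10.8%, 6.97% and 4.39% of the signal of the 7 claudins in mice 1, 2 and 4 and 4.50%, 0.849% and 2.83% in mice 7, 8 and 9. Cldn3 alone took from 44.2% to 53.4% of it in every library.

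**Figure D3:**
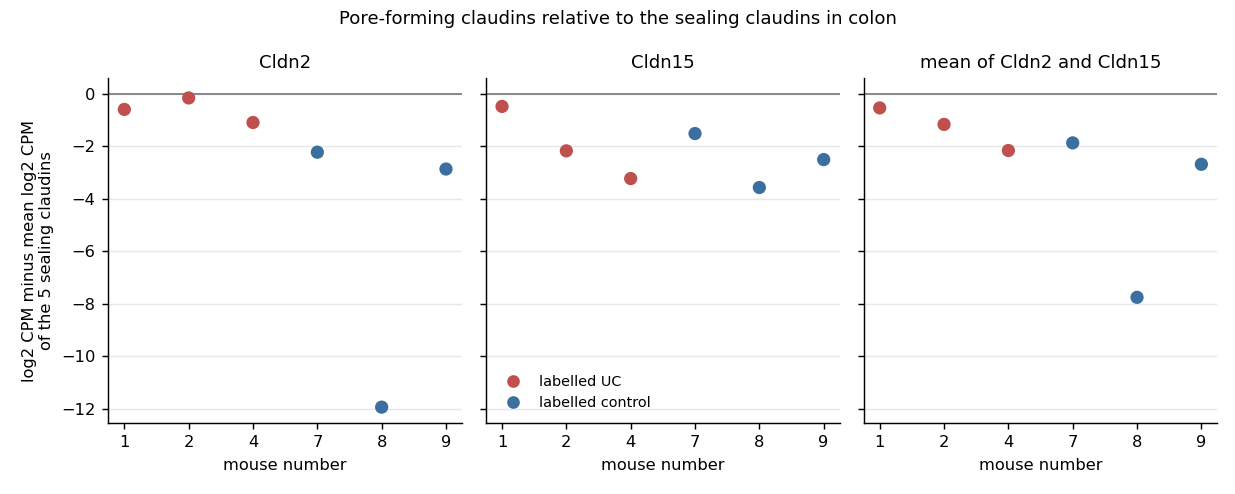
Log2 CPM of Cldn2, of Cldn15 and of their mean minus the mean log2 CPM of the 5 sealing claudins, for each colon library by mouse number (red, labelled UC; blue, labelled control; the grey line is 0). Cldn2 lies higher in the red libraries, Cldn15 is highest in mouse 1 (-0.47), and mouse 8 is the low point of the mean at -7.76.

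Levels of different genes were compared per length, as CPM per kilobase of exon. Cldn3 was the most abundant member with 311 ± 47.3 (SD, n = 6), followed by Cldn7 with 172 ± 25.9 and F11r with 66.1 ± 10.2. Cldn8 (61.6 ± 30.6), Cldn4 (44.0 ± 14.4), Tjp1 (32.9 ± 6.55) and Ocln (29.4 ± 9.11) came next. Cldn23 (19.0 ± 6.12), Cldn15 (17.1 ± 15.2) and Cldn2 (15.02 ± 11.9) had the lowest means. Single libraries differed from this order: in mouse 2 Cldn2 (27.4) was above Cldn4 (15.7), and in mouse 1 Cldn15 (46.1) was above Cldn8 (30.9).

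Neighbours in this order were compared by an exact two-sided sign-flip permutation test over the 6 libraries, which cannot give a p below 0.0312. Cldn3 was above Cldn7 and Cldn7 above F11r in 6 of 6 libraries, each with an exact p of 0.0312 and 0.141 after adjustment over the 9 pairs. The pairs were formed from the order in these same libraries, and with so few libraries the adjusted values say little about the order. The other 7 pairs were in order in 3 to 5 of the 6 libraries (exact p from 0.0938 to 0.594), for example F11r and Cldn8 in 3 of 6, within the spread between libraries.

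**Figure D4:**
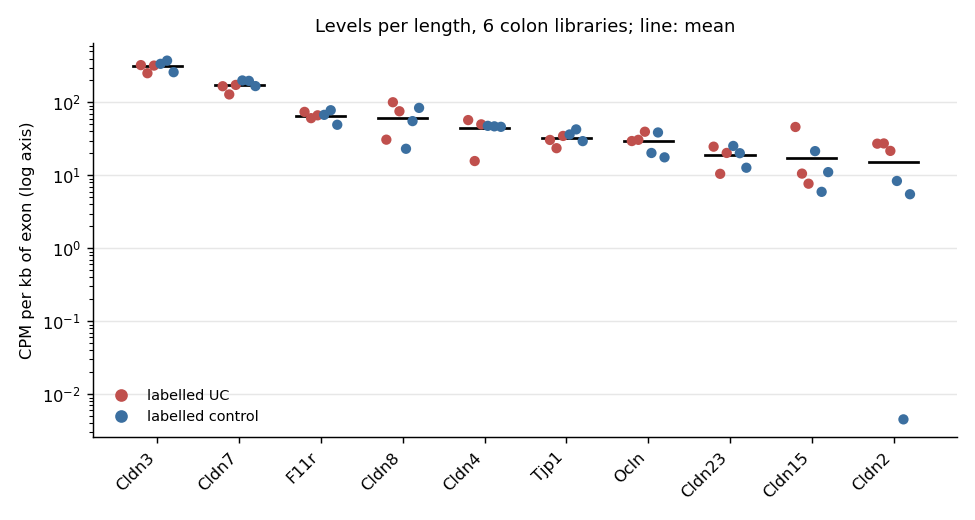
CPM per kilobase of exon (log axis) for each tight junction gene in the 6 colon libraries, ordered by the mean (black line); red points are labelled UC and blue points labelled control. Cldn3 and Cldn7 lie above the rest in every library, and the lowest point is Cldn2 in mouse 8 at 0.00452.

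The genes with the profile most like that of Cldn8 were sought among 15754 protein-coding genes, by the root mean square distance between centred log2 CPM over the 6 colon libraries. They were Esco2 (0.15), Dnah8 (0.18) and Kcne3 (0.20). Esco2 had 387, 1074 and 892 normalized counts in mice 1, 2 and 4 and 300, 716 and 1275 in mice 7, 8 and 9. Dnah8 had 1139, 5000 and 3274 against 836, 2608 and 3287. Kcne3, a potassium channel subunit of colonic epithelium, had 2877, 9349 and 5343 against 1812, 3653 and 5824. Shared regulation of these genes with Cldn8 was not tested. For Cldn2 the nearest genes were Zfp966 (1.222), Zfp967 (1.487) and Pcdhb17 (1.654), each listed at 0 in mouse 8, and at these distances none was a close match. Zfp966 and Zfp967 belong to a family of near-identical zinc finger genes and Pcdhb17 to a gene cluster, so their counts are uncertain where reads are shared between copies.

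Beyond the 10 members, 78 tested genes of tight junctions, adherens junctions and desmosomes were examined in the same fit. Of these 0 were SDE and 3 had an unadjusted p under 0.05, against 1.41% of all genes. DESeq2 called 0 with 3 at that level, against 2.51%. The log2FC was positive in 29 and negative in 49, with a median of -0.06, beside -0.01 over all genes. Separation without overlap by label was seen in 7 of the 78, with UC higher in 2 and lower in 5, beside 3.51% and 2.15% of all tested genes.

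Among the other claudins, 7 of 26 found passed the filter. Cldn1, a barrier claudin of stratified epithelium, had 107, 124 and 220 normalized counts in mice 1, 2 and 4 and 511, 332 and 301 in mice 7, 8 and 9 (log2FC -1.36, SE 0.40, edgeR, unadjusted p under 0.05, adjusted p = 1.00). It was lower in each library labelled UC than in any labelled control. Cldn11 had a log2FC of -0.78 at a low level of 8.25 to 19.8 normalized counts, also without overlap. Cldn12 had 5655, 6718 and 6104 normalized counts against 3140, 5365 and 4191, higher in each library labelled UC (log2FC 0.53, SE 0.23, adjusted p = 1.00 in edgeR).

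Among the 11 other membrane genes, 5 had a positive and 6 a negative log2FC (median -0.07), led by Ildr2 (-0.61), Esam (-0.50), an adhesion gene of endothelium, and Ildr1 (-0.33), an angulin of tricellular junctions. Of 23 cytoplasmic genes 6 were positive and 17 negative (median -0.06). Cgnl1, which encodes paracingulin, had 5101, 4160 and 4204 normalized counts in mice 1, 2 and 4 and 6834, 5499 and 8711 in mice 7, 8 and 9, without overlap (log2FC -0.65, SE 0.21, edgeR, unadjusted p under 0.05, adjusted p = 1.00). Prkcz, the atypical kinase of the polarity complex, had a log2FC of 0.51.

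The 21 regulators were divided into 10 positive and 11 negative (median -0.0036), with Tnfrsf1b (-1.39) and Tnfrsf1a (-0.70), the receptors of tumour necrosis factor, and Wnk4 (0.66), a kinase that acts on claudins. Tnfrsf1b was at 7393, 1940 and 1638 normalized counts against 10807, 1540 and 16383, highest in mice 9, 7 and 1, as was S100a8. In the 11 adherens junction genes 4 were positive and 7 negative (median -0.10). Nectin3, an adhesion receptor, had 9116, 9684 and 13405 normalized counts against 4023, 7302 and 4805, without overlap (log2FC 0.98, SE 0.28, edgeR, unadjusted p under 0.05, adjusted p = 1.00), Ctnnd1 had a log2FC of -0.37 and Nectin4 of 0.26. All 5 desmosome genes were negative (median -0.23), with Pkp3 at -0.41, Dsc2 at -0.30 and Dsg2 at -0.23, beside a median of -0.18 and negative values in 6 of 6 for the epithelial reference genes.

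In whole blood the tight junction genes were read far less. All 10 were SDE and higher in colon, as were 37.7% of 23258 tested genes, with adjusted p from 2.14e-08 (Tjp1) to 0.00101 (Cldn2) in edgeR. Every colon library exceeded every blood library for all 10, as for 34.3% of all genes, although for Cldn2 in mouse 8 this was 1 count against 0. Different depletion kits were used for the tissues, ribosomal for colon and globin with ribosomal for blood, so kit and tissue cannot be told apart.

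Only F11r, Tjp1 and Cldn15 were read in each blood library. F11r, which platelets and leukocytes also carry, had 1378, 546 and 978 counts in blood of mice 1, 2 and 4 and 1660, 876 and 1233 in mice 7, 8 and 9. Its level was 83.5 ± 12.7 CPM in colon and 19.3 ± 4.91 CPM in blood (SD, n = 6 each), the smallest difference of the 10 (log2FC 2.11, SE 0.20). Tjp1 had 193, 122 and 136 counts against 191, 178 and 228 (log2FC 5.28, SE 0.22), and Cldn15 had 104, 14 and 8 against 40, 22 and 31 (log2FC 4.71, SE 0.74). By count, mice 1 and 7 gave the 2 highest Cldn15 values in blood as they did in colon. Mouse 9 was close, with 31 counts in a library of 92336686 total counts against 127585451 for mouse 7.

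The other members were at or near the floor. Cldn2 had 0 counts in all 6 blood libraries, and its colon mean of 23.6 CPM was at least 427-fold higher than the level of 3 counts per library (0.0553 CPM). This holds for the mean only, since Cldn2 in the colon of mouse 8 (0.00706 CPM) was itself below that level. Cldn8 had 3 counts in blood, all in mouse 2, against a colon mean of 68.7 CPM. The remaining 5 had 11 to 28 counts in total over the blood libraries, and 3 to 5 of the 6 libraries held no more than 3 each. These floors cover counting error only. The counts derive from transcript coverage, so 3 counts need not be 3 reads.

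**Figure D5:**
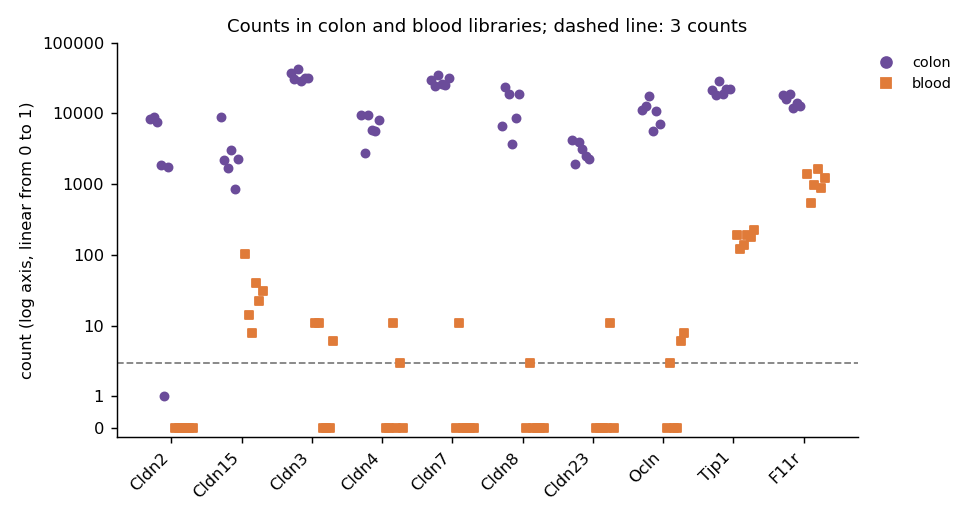
Counts of each tight junction gene in the 6 colon libraries (purple circles) and the 6 blood libraries (orange squares) on a log axis that is linear from 0 to 1; the dashed line marks 3 counts. F11r, Tjp1 and Cldn15 are read in every blood library, Cldn2 in none.

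An interaction term in the fit of the 12 libraries tested whether the labelled UC effect differed between colon and blood. Of the 10 members 0 passed an adjusted p of 0.05, as 0.0043% of 23258 genes did, and 1 of the 10 (Cldn7) had an unadjusted p under 0.05, against 3.41% of all genes. DESeq2 called 0 members, beside 0.086% of genes, with 2 at that level, beside 4.87%. The Cldn7 value rests on 11 blood counts, all in mouse 2. For Cldn2, with 0 counts in every blood library, the term could not be estimated (SE 15397.5). Cldn8 had 3 blood counts in total and Cldn3 had 28. The 0 of 10 therefore says little beyond the genes read in every blood library. For the genes read in every blood library the difference of log2FC, colon minus blood, was -0.02 (SE 1.21) for Cldn15, -0.18 (SE 0.37) for Tjp1 and 0.15 (SE 0.38) for F11r.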

How the data were processed

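Total RNA-Seq of colon and whole blood of 6 mice gave 12 libraries. The authors trimmed reads, removed ribosomal reads, mapped to GRCm38 with STAR and quantified Ensembl 92 genes with Stringtie 1.3.4c (tools per the submitters' processing notes and the study's methods). The deposited counts are whole numbers derived from transcript coverage, without strand, so overlapping genes can share them. The deposited normalized counts are counts that the authors divided by 1 factor per library, a signal scale. In the colon that factor ran from 0.791 to 1.21 and was the same for 100% of genes, so whole counts were recovered. The count test on the genes of that table called 1 gene and 0 members. Tables of the tissues were normalized separately and were compared only within a tissue.

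Groups follow the disease state and tissue labels. In R 4.3.3, counts were tested with edgeR 4.0.16 (TMM, filterByExpr, glmQLFit, glmQLFTest, Benjamini-Hochberg over all tested genes): colon alone for UC against control, and all 12 libraries for tissue and interaction. SE was derived from the log2FC and the F statistic. Tests were two-sided. TMM factors in colon ran from 0.899 to 1.115. CPM and log2 CPM (prior count of 2) were computed from the counts, and lengths, coordinates and overlaps came from GENCODE vM21 (GRCm38). Alternatives were RLE and library-size scaling, scaling to epithelial genes, other filters, DESeq2 1.42.0, limma-voom (limma 3.58.1), a fit of all libraries and leaving out each mouse. Simulated counts with 200 genes changed 4-fold were run through the same fits. At a dispersion (squared coefficient of variation between replicate libraries) of 0.05, 100% were recovered in colon, 100% between tissues and 97% for the interaction. At 0.25 the shares were 20%, 89% and 1%. That coefficient was 0.503 in the colon fit and 0.499 in the fit of all libraries. The lack of called members in colon and in the interaction therefore does not by itself exclude 4-fold changes. In colon the edgeR intervals of the log2FC reached past a 4-fold change for Cldn2 (-1.17 to 6.09) and Cldn15 (-1.14 to 2.62). Those of Cldn3, Cldn4, Cldn7, Cldn8, Cldn23, Ocln, Tjp1 and F11r lay within a 4-fold change either way, for the libraries as labelled. Depth limits low counts only, as in blood, and p-values measure the spread between mice.

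Colon and blood came from the same 6 mice by the study's methods, and the mouse number pairs them in the titles. Deviations of same-numbered libraries from their labelled group means correlated over 15802 genes with r from 0.0073 to 0.233, positive in 6 of 6 pairs, and genes are not independent replicates. The replicate block was an alternative for tissue and interaction.

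The members and lists were chosen with earlier results of these data known. Text names all 10 members, the SDE genes of each junction list or otherwise the 3 with the largest |log2FC| and a mean of at least 10 normalized counts, a few inflammation and epithelial genes, and the 3 nearest profiles of Cldn2 and Cldn8; a gene that this rule would name is not reported here. Genes named because Cldn2 was low in mouse 8 (its neighbours Ripply1, Tbc1d8b and Morc4, and Gm43302), the Hox genes and Alas2 were added after their values were seen.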

Additional observations from a re-analysis of the deposited data

How the results depend on the processing

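For the 10 tight junction genes, the count of SDE members was 0 in colon and 10 between the tissues under every alternative run, and 0 for the interaction, and the 78 other junction genes stayed at 0. With the replicate block (mouse number) 10 members were SDE between the tissues and 0 differed in the interaction, so pairing changed no call. No paired analysis was possible for colon alone because its labelled groups share no mouse number. Without each mouse in turn these counts ran from 0 to 0 in colon, from 10 to 10 between the tissues and from 0 to 0 for the interaction. Over all genes DESeq2 called 6 SDE genes in colon and limma-voom 0, beside 1, and for the interaction DESeq2 called 20, the replicate block 0 and the fit without mouse 8 2, beside 1.

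Some colon log2FC turned in direction. Without mouse 1, Cldn15 was -0.49 and F11r -0.029. Without mouse 2, Cldn4 was 0.19, Cldn8 -0.026, Cldn23 0.22 and Nectin4 -0.068. Without mouse 7, Cldn8 was -0.016, Cldn23 0.17, Ildr1 0.11 and Dsc2 0.047. Without mouse 8, Cldn3 was 0.0031, and without mouse 9, F11r was -0.11. Leaving out each mouse, the ranges were -0.49 to 1.33 for Cldn15, -0.25 to 0.0031 for Cldn3, -0.51 to 0.19 for Cldn4, -0.026 to 0.82 for Cldn8, -0.33 to 0.22 for Cldn23, -0.11 to 0.20 for F11r, -0.83 to 0.11 for Ildr1, -0.068 to 0.65 for Nectin4 and -0.71 to 0.047 for Dsc2. Scaling to epithelial genes, which moved the median of all genes from -0.01 to 0.13, gave 0.062 for Cldn3 and 0.15 for Cldn23. The difference between colon and blood turned to 0.45 (library size), 0.61 (limma-voom), 0.49 (replicate block), 0.57 (without mouse 1) and 0.47 (without mouse 7) for Cldn15, and to 0.19 (library size) and 0.027 (without mouse 2) for Tjp1, with ranges without each mouse of -0.30 to 0.57 and -0.52 to 0.027. The cause was not tested. Cldn2 stayed positive in all 15 alternatives (1.88 to 5.07, adjusted p from 0.540 to 1.00), as did Ocln (0.18 to 0.82), and Cldn7 and Tjp1 stayed negative.

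The pore-forming minus sealing difference between labelled groups was 2.76 with Cldn3, Cldn4 and Cldn8 alone, 2.90 from the normalized counts and 1.97 from summed counts. Only with summed counts did the labelled groups not overlap, and there mouse 4 (-3.57) was just above mouse 7 (-3.77). Leaving out a mouse moved the main difference between 0.99 (mouse 8) and 3.94. The order of mean levels kept 7 to 9 of 9 neighbour pairs without each mouse, with 7 without mouse 1 and 7 without mouse 7, and 8 with the longest transcript as length. Library size alone moved the median log2FC of colon over blood from 0.46 to 2.57, and F11r from 2.11 to 4.24. Depth limits the blood values of 7 members.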
